A study of Mus musculus with 15 samples.

Results

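The 10 genes described here encode the core enzymes that turn arachidonic acid into leukotrienes, prostaglandins and thromboxane. They are Pla2g4a, Alox5, Alox5ap, Lta4h, Ltc4s, Ptgs1, Ptgs2, Ptges, Hpgds and Tbxas1, and they were found by matching the 45232 Ensembl gene IDs of the raw count table to mouse symbols. All 10 had an ID in the table, and all 10 were among the 17834 genes that passed the filter on low counts and were tested. Alox5 and Ptgs2 were selected on their measured values in these same libraries, so their levels and fold changes are given as a description without a p-value, and the other 8 members are their known partners.

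Arachidonic acid is stored in membrane phospholipids, and cytosolic phospholipase A2 (Pla2g4a) releases it. In one arm, 5-lipoxygenase (Alox5), working with its activating protein (Alox5ap), makes leukotriene A4, which Lta4h turns into leukotriene B4, a neutrophil attractant, and Ltc4s into the cysteinyl leukotrienes. In the other arm, the constitutive cyclooxygenase (Ptgs1) or the inducible one (Ptgs2, also called COX-2) makes prostaglandin H2, from which Ptges makes prostaglandin E2, Hpgds prostaglandin D2 and Tbxas1 thromboxane A2. In bone marrow these lipids are best known as products of mature myeloid cells, mast cells and platelets, and prostaglandin E2 also acts on stem cells.

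RNA was taken from sorted C57BL/6 bone marrow cells that were CD45.2+ and LSK (Sca-1+ and c-Kit+ without lineage markers), a fraction rich in stem cells and early progenitors, in 5 groups of 3 libraries each. In 4 of the groups the cells came from hosts of Jak2/Idh2-mutant marrow treated with vehicle, with AG221 (an inhibitor of mutant IDH2, 40 mg/kg by the labels), with ruxolitinib (a JAK kinase inhibitor, 60 mg/kg) or with both drugs combined, by gavage for 21 to 28 days, and the last dose preceded sacrifice by about 1.5 hours. The mutant cells carried conditional alleles of Jak2 and Idh2 that Mx1-Cre switches on after induction in blood-forming and other interferon-responsive cells, and they were transplanted beside CD45.1 WT marrow into irradiated CD45.1 hosts, so all 4 mutant groups share transplantation and the host's remaining WT cells. The remaining group was labelled wild type (WT), and neither the labels nor the methods say that these mice were transplanted or dosed. The study's methods give 1 wide adult age range for all of its mice and none by group, and whether a library came from 1 mouse is not given in the sources used here, so p-values measure only the spread between these libraries.

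Libraries held between 18836625 and 32174287 counts in total, and 3 counts, the limit that a count of 0 allows, were worth 0.0957 to 0.157 CPM (counts scaled to a common library total, with TMM factors). The combined and WT replicates have names that start with B, those of the other 3 groups with A, and the letter's meaning is not given in the sources used here, so in every comparison across letters the group and the letter cannot be told apart. AG221 replicates A8 and A10 and ruxolitinib replicate A16 stood apart in base composition: their GC-rich genes were lower against their GC-poor genes by -0.806, -0.529 and -0.269 on the log2 scale, while the other 12 libraries lay between -0.092 and 0.293. Xist, which female cells express, was at 455 to 511 CPM in WT and at 0.365 to 19.5 CPM in the mutant groups, so sex also differed between WT and every mutant group. The 10 LSK and stem cell markers summed to 4150 to 4580 CPM in WT and 2130 to 3560 CPM in the mutant groups, and all 10 were detected in every group.

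Because the whole account turns on Alox5 and Ptgs2, the starts of both genes are shown first, from 250 bases before to 30 bases after the annotated start (RefSeq, GRCm38.p6). Ptgs2 lies at chr1:150100031-150108227 on the plus strand and its window at chr1:150099781-150100060. Alox5 lies at chr6:116410077-116461178 on the minus strand and its window at chr6:116461149-116461428. Capitals mark the motif matches found by a search of both strands.
Ptgs2: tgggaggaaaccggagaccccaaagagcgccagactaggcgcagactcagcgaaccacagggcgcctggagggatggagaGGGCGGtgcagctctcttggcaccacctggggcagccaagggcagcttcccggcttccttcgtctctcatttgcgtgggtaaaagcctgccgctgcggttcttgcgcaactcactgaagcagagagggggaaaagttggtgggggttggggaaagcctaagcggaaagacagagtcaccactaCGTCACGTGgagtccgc
Alox5: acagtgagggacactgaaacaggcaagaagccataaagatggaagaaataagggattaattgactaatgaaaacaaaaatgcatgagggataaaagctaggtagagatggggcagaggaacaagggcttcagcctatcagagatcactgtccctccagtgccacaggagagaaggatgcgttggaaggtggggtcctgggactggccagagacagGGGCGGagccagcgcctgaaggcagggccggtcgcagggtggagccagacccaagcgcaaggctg
Both windows held 1 match to the GC box GGGCGG, 170 bases before the start in Ptgs2 and 35 bases before it in Alox5, as did 34.7% of the 32851 windows of the same length in the table. The Ptgs2 window also held, just after the start, the core of a cAMP response element (TGACG, read here on the opposite strand) that overlaps an E box (CACGTG), which occurred in 19.9% and 6.79% of all windows. Neither held the GAS motif TTCNNNGAA bound by STAT proteins (7.83% of windows), the AP-1 site TGANTCA (7.46%), TATAAA (13.1%) or CCAAT (36.1%). Of the 10 members, 9 were in the promoter table.

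Levels between genes were compared per kilobase of exon. In WT cells Alox5ap was the highest member at 85.0 ± 11.4 CPM per kb (SD, n = 3), followed by Lta4h at 57.3 ± 1.99, Ptgs1 at 25 ± 3.13, Pla2g4a at 19.9 ± 1.69 and Tbxas1 at 15.4 ± 2.36. Ltc4s followed at 4.77 ± 0.305 CPM per kb, Alox5 at 2.22 ± 0.249, Hpgds at 1.24 ± 0.149, Ptges at 1.05 ± 0.308 and Ptgs2 last at 0.158 ± 0.049. Of these neighbours, only Hpgds and Ptges overlapped in their WT libraries. In vehicle cells the same 2 genes led, Alox5 held rank 5 at 16.1 ± 3.77 CPM per kb, where it overlapped Ptgs1 and Tbxas1, and Ptgs2 held rank 7 at 7.74 ± 3.06. With combined treatment Ptgs2 was last again, at 0.144 ± 0.0648 CPM per kb, while Alox5 held rank 6 at 7.63 ± 2.61.

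**Figure D1:**
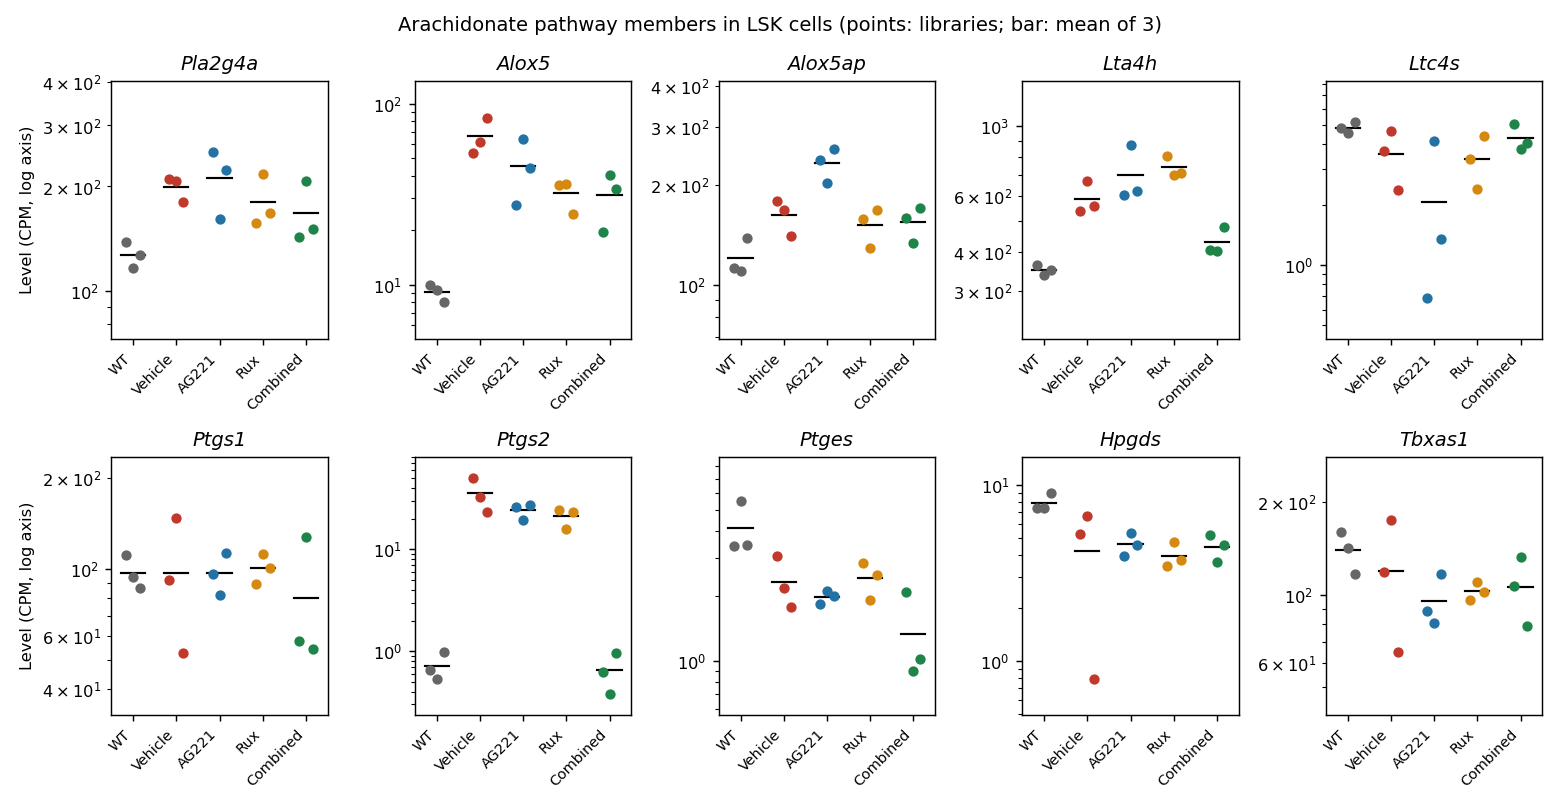
Level of each member (CPM, log axis with its own range in each panel) in the 15 libraries, by group, with the mean of 3 libraries as a bar. Ptgs2 lies below 1 CPM in the WT and combined groups and between 15.8 and 50.7 CPM in the other 3, and Alox5 lies above the WT libraries in all 4 mutant groups.

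The vehicle and WT groups differ in genotype, but also in sex and in replicate letter. Of these 2 groups, transplantation and gavage are stated only for vehicle. The comparison of vehicle with WT therefore cannot tell the mutant disease state apart from these differences. In edgeR's quasi-likelihood fit, with p-values adjusted by Benjamini-Hochberg across all genes tested, 3 of the 8 members other than Alox5 and Ptgs2 differed at an adjusted p-value under 0.05, all of them higher with vehicle (Alox5ap, Lta4h and Pla2g4a), against 33.3% of all genes tested. The median log2 fold change of the 8 was -0.12, against -0.09 over all genes tested. For 5 of the 8 the vehicle and WT ranges lay apart, 3 higher and 2 lower, against 56.9% of all genes tested.

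Ptgs2, the inducible cyclooxygenase, was at 0.653, 0.539 and 0.972 CPM in the WT libraries and at 50.7, 32.6 and 23.1 CPM with vehicle. With AG221 it was at 25.8, 19.2 and 27.2 CPM, with ruxolitinib at 24.6, 15.8 and 23.2 CPM, and with combined treatment at 0.626, 0.38 and 0.971 CPM. The combined and WT libraries occupied the same range, on 11 to 29 counts each, and lay far below all 9 libraries of the other groups. The log2 fold change was 5.61 ± 0.409 (SE) for vehicle against WT, a 48.8-fold higher level, and -5.76 ± 0.418 for combined treatment against vehicle, a 54.3-fold lower level. Against vehicle it was -0.56 ± 0.325 with AG221 and -0.74 ± 0.326 with ruxolitinib, and the libraries of each drug overlapped those of vehicle. Combined treatment against WT gave -0.15 ± 0.406.

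The same pattern held within each library when Ptgs2 was set against Ptgs1, the constitutive cyclooxygenase, which removes the scaling between libraries. Per kilobase, Ptgs2 made up 0.483% to 0.941% of both cyclooxygenases in WT, 15.9% to 31.9% with vehicle, 16.6% to 18.5% with AG221, 10.7% to 18.9% with ruxolitinib and 0.252% to 1.5% with combined treatment. Ptgs1 itself ran from 86.8 to 111 CPM in WT and from 52.7 to 147 CPM with vehicle, and it passed the test in none of the 10 comparisons. Its vehicle libraries spread widely, with A4 lowest and A3 highest.

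Every library named A had more Ptgs2 (15.8 to 50.7 CPM) than any library named B (0.38 to 0.972 CPM), so for this gene the drug combination and the letter cannot be told apart. Among the members the same complete split held for Lta4h, while it held for 12.5% of all genes tested. For Alox5 the ranges of the libraries named A (24.6 to 83.4 CPM) and B (8.01 to 40.5 CPM) overlapped.

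Immediate early genes, the fast transcription factors and feedback regulators that cells switch on within minutes of a stimulus, moved with Ptgs2 as a sum, though not gene by gene. Summed over the 14 genes of this list, which leaves out Ptgs2 itself, they reached 878 to 1200 CPM in WT, 7620 to 16300 with vehicle, 4650 to 6190 with AG221, 4910 to 10100 with ruxolitinib and 809 to 1410 with combined treatment. In vehicle against WT 12 of the 14 rose and none fell (median log2 fold change 3.60), where 33.3% of all genes tested were called. In combined treatment against vehicle 11 fell and none rose (median -3.73), against 12.5%, and in combined treatment against WT the median was -0.06. In AG221 A8 and A10, Jun (51.7 and 65.8 CPM), Junb (48.9 and 86 CPM) and Ier2 (49.9 and 72 CPM) lay below all WT libraries. Those WT libraries were at 117 to 242, 122 to 139 and 147 to 166 CPM. AG221 A9 lay above them, at 365, 515 and 449 CPM. A8 and A10 were the libraries lowest in GC-rich genes, and the transcripts of Jun, Junb and Ier2 hold 55.5%, 62.6% and 60.9% GC. The part of base composition in these values was not tested. The part of the immediate early genes in the Ptgs2 difference was not tested.

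Alox5, the 5-lipoxygenase that opens the leukotriene arm, was at 10, 9.37 and 8.01 CPM in WT and at 53.5, 61.4 and 83.4 CPM with vehicle. With AG221 it was at 27.7, 63.6 and 44.1 CPM, with ruxolitinib at 35.6, 36.2 and 24.6 CPM, and with combined treatment at 19.6, 40.5 and 34.0 CPM. All 12 mutant libraries lay above the WT libraries, and the ruxolitinib and combined libraries lay below the vehicle libraries. The log2 fold change was 2.85 ± 0.333 for vehicle against WT (7.23-fold higher) and 1.78 ± 0.321 for combined treatment against WT (3.43-fold higher), the second within the letter B. Against vehicle it was -0.55 ± 0.31 with AG221, -1.04 ± 0.312 with ruxolitinib and -1.07 ± 0.313 with combined treatment. The difference between combined treatment and ruxolitinib was -0.034 ± 0.31, smaller than its error.

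Mast cell and basophil markers were also higher in the mutant groups. The 12 markers, among them Cpa3 and Fcer1a, summed to 120 to 210 CPM in WT, 759 to 1290 with vehicle, 767 to 914 with AG221, 453 to 581 with ruxolitinib and 323 to 543 with combined treatment, and all were above 3 counts in at least 1 library of each group except Tpsab1 with AG221. The 12 neutrophil markers summed to 3500 to 3860 CPM in WT, 7860 to 12900 with vehicle, 17400 to 20600 with AG221, 12200 to 19400 with ruxolitinib and 4320 to 7750 with combined treatment. The 10 monocyte and macrophage markers ran from 474 to 531 CPM in WT and from 681 to 2610 CPM in the mutant groups. The 10 megakaryocyte and platelet markers summed to 294 to 394 CPM in WT, 964 to 1010 with vehicle, 398 to 649 with AG221, 758 to 871 with ruxolitinib and 568 to 1080 with combined treatment. The 10 erythroid markers ran from 335 to 476 CPM in WT and from 704 to 4130 CPM in the mutant groups. The 8 T and NK cell markers summed to 199 to 263 and 415 to 783 CPM. Most of that sum was Nkg7, at 150 to 216 CPM in WT and 362 to 760 CPM in the mutant groups. In vehicle against WT the median log2 fold change of these 8 was -0.88. Only 1 of them was called, higher, against 33.3% of all genes tested. The 9 B-lineage and plasma cell markers were lower in the mutant groups, at 521 to 1100 CPM in WT and 50.6 to 112 CPM in the mutant groups. Single genes also led other sums in WT: Mpo (neutrophil) at 2160 to 2390 CPM, Car1 (erythroid) at 202 to 301 and Jchain (B-lineage) at 422 to 935. In vehicle against WT 8 mast cell, 6 neutrophil, 6 monocyte, 5 megakaryocyte and 3 erythroid markers were called, all higher, and 6 B-lineage markers, all lower, against 33.3% of all genes tested. In combined treatment against WT these counts were 2, 1, 1, 4, 0 and 3, against 3.25%. The part of these cells in the members' levels was not tested, and in sorted bulk cells fewer cells of a type and less RNA per cell cannot be told apart.

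Alox5ap, the membrane protein that presents arachidonic acid to 5-lipoxygenase, was at 113, 110 and 139 CPM in WT, 179, 169 and 141 CPM with vehicle and 239, 203 and 258 CPM with AG221. With ruxolitinib it was at 158, 129 and 168 CPM and with combined treatment at 159, 134 and 171 CPM. AG221 was the group with the highest libraries, all above the vehicle libraries. It rose by 0.43 ± 0.156 in vehicle against WT (adjusted p = 0.0471, edgeR) and by 0.95 ± 0.157 in AG221 against WT (adjusted p = 0.000616). Against WT the vehicle group no longer passed without any 1 of A1, A3, B28 and B30 (adjusted p = 0.0862 to 0.167). The step from vehicle to AG221, within the letter A, was 0.52 ± 0.156 and missed the threshold (adjusted p = 0.0839). Combined treatment was lower than AG221 by a log2 fold change of -0.59 ± 0.156 (adjusted p = 0.0122), a call lost without B25 (adjusted p = 0.0595).

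Lta4h, the hydrolase that makes leukotriene B4, was at 362, 338 and 349 CPM in WT, 540, 672 and 558 CPM with vehicle and 606, 871 and 623 CPM with AG221. With ruxolitinib it was at 808, 703 and 711 CPM and with combined treatment at 406, 402 and 478 CPM. The combined libraries lay between WT and the other 3 groups and overlapped none of them. The log2 fold change was 0.75 ± 0.149 in vehicle against WT (adjusted p = 0.00497, edgeR), 1.0 ± 0.149 in AG221 against WT (adjusted p = 0.000371) and 1.08 ± 0.15 in ruxolitinib against WT (adjusted p = 0.000833). Combined treatment was lower than AG221 by -0.71 ± 0.149 (adjusted p = 0.00463) and lower than ruxolitinib by -0.79 ± 0.149 (adjusted p = 0.00421). Against vehicle the value of -0.46 ± 0.148 missed the threshold (adjusted p = 0.0586) but passed it under 6 of the alternative settings, such as RLE normalization (adjusted p = 0.0475), and against WT the value was 0.29 ± 0.148 (adjusted p = 0.233).

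Each single drug gave a higher Lta4h mean than vehicle without passing the test (0.25 ± 0.148 with AG221 and 0.33 ± 0.148 with ruxolitinib on the log2 scale), and combined treatment gave a lower one. The change with both drugs departed from the 2 single-drug changes added together by -1.03 ± 0.21 on the log2 scale (adjusted p = 0.0286, edgeR). That call was lost without A4, A17, B24 or B25, with adjusted p-values of 0.0549 to 0.0916. For Ptgs2 the same departure was -4.46 ± 0.507, and for Alox5 it was 0.52 ± 0.438. Across all genes tested 8.42% departed at this threshold, and Lta4h was the 1 of the 8 members other than Alox5 and Ptgs2 that did. The combined group is the only treated group named B, so for the departure too the letter cannot be told apart.

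Ltc4s, the synthase of the cysteinyl leukotrienes, followed neither Alox5 nor Lta4h. It ran from 4.55 to 5.16 CPM in WT, 2.37 to 4.66 with vehicle, 0.684 to 4.17 with AG221, 2.39 to 4.4 with ruxolitinib and 3.8 to 5.06 with combined treatment. It passed the test in none of the comparisons, and the value closest to the threshold was -1.23 ± 0.491 in AG221 against WT (adjusted p = 0.0501, edgeR). That value was -2.22 without A9 (adjusted p = 0.000529), -0.80 without A8 (adjusted p = 0.15) and -0.39 with GC content offsets (adjusted p = 0.313), and it passed the threshold with DESeq2 (adjusted p = 0.0364) and 3 other settings. Its lowest libraries were AG221 A8 (0.684 CPM) and A10 (1.35 CPM), which were also the libraries lowest in GC-rich genes, and its transcripts hold 60.7% GC. Of its exon bases 26.4% overlap Gm26542 on the opposite strand, and whether counting used strand is not given in the sources used here; for Alox5ap that share was 13.3% (Gm19719), for Ptgs1 3.81% (Gm43621) and for Tbxas1 1.58% (Gm42962).

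Pla2g4a, which releases the arachidonic acid used by both arms, ran from 116 to 138 CPM in WT and from 180 to 210 CPM with vehicle. It rose by 0.65 ± 0.19 in vehicle against WT (adjusted p = 0.0222, edgeR) and by 0.73 ± 0.19 in AG221 against WT (adjusted p = 0.00726). The vehicle call was lost without A1 or B30 (adjusted p = 0.0595 and 0.092). Its ruxolitinib (157 to 217 CPM) and combined (143 to 208 CPM) libraries also lay above all WT libraries without passing the test. Combined treatment overlapped vehicle, with a log2 fold change of -0.25 ± 0.19 (adjusted p = 0.441).

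**Figure D2:**
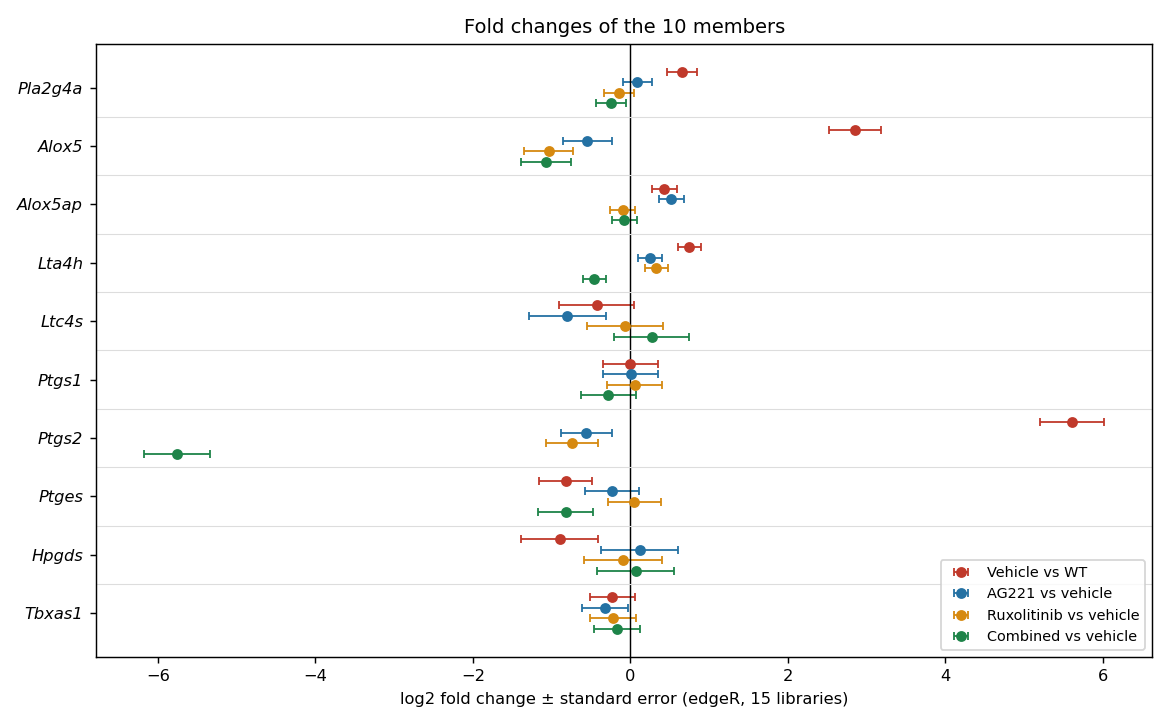
Log2 fold change with its standard error (edgeR, fit of 15 libraries) of the 10 members in 4 comparisons. Ptgs2 moves by 5.61 in vehicle against WT and by -5.76 in combined treatment against vehicle, while both single drugs leave it within 1 log2 unit of vehicle.

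The terminal prostanoid synthases did not rise with Ptgs2. Ptges, the inducible prostaglandin E synthase, was at 3.41, 5.53 and 3.45 CPM in WT, 3.05, 2.17 and 1.78 CPM with vehicle, 1.84, 2.11 and 2.0 CPM with AG221, 2.83, 1.92 and 2.5 CPM with ruxolitinib and 2.09, 0.899 and 1.02 CPM with combined treatment. All 12 mutant libraries lay below the WT libraries. It was lower than WT with AG221 (-1.06 ± 0.341, adjusted p = 0.0207, edgeR) and with combined treatment (-1.64 ± 0.351, adjusted p = 0.0285), and the vehicle value of -0.82 ± 0.338 missed the threshold (adjusted p = 0.0734). The AG221 call was lost without A8, A10 or B30 (adjusted p = 0.0612 to 0.101), with no low count filter (0.0607) and with GC content offsets (0.0509), and the combined call without B25, B26, B28 or B30 (adjusted p = 0.0644 to 0.137). Hpgds, the haematopoietic prostaglandin D synthase, also lay below WT (7.37 to 9.05 CPM) in all 12 mutant libraries (0.789 to 6.64 CPM) and passed the test in none of the comparisons; in vehicle against WT the value was -0.90 ± 0.488 (adjusted p = 0.162), and without vehicle replicate A4 it was -0.40 (adjusted p = 0.242). Tbxas1, the thromboxane synthase, ran from 117 to 160 CPM in WT and from 65.2 to 175 CPM in the mutant groups and passed the test nowhere. Vehicle replicate A4 was the lowest library of the series for Ptgs1, Hpgds and Tbxas1, at 52.7, 0.789 and 65.2 CPM.

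Alox5 and Ptgs2 are left out of the following counts, since their values in these comparisons are part of how the members were chosen. Of the other 8 members, AG221 against WT called 4 (Alox5ap, Lta4h and Pla2g4a higher, Ptges lower) against 50.7% of all genes tested, and ruxolitinib against WT called 1, Lta4h, which was higher, against 32.3%. Combined treatment against WT called 1, Ptges, which was lower, against 3.25%, and 4 of the 8 did not overlap WT (Lta4h and Pla2g4a higher, Ptges and Hpgds lower), against 41.6%. AG221 against vehicle called none by edgeR, against 0.987% of all genes tested, with 1 member at an unadjusted p-value under 0.05 and 1 called by DESeq2 (Alox5ap); 1 member did not overlap vehicle, against 20.0%. Ruxolitinib against vehicle called none by either tool, against 0.0168%, with 1 at an unadjusted p-value under 0.05; Lta4h alone of the 8 did not overlap vehicle, higher, against 8.17%. Combined treatment against vehicle called none by edgeR, against 12.5%, with 2 at an unadjusted p-value under 0.05 and 1 called by DESeq2 (Lta4h), and Lta4h alone of the 8 did not overlap vehicle, lower, against 34.7%. Combined treatment called 2 of the 8 against AG221 (Alox5ap and Lta4h) and 1 against ruxolitinib (Lta4h), all lower, where 33.2% and 12.4% of all genes tested were called. The vehicle libraries enter each comparison with vehicle and the WT libraries each one with WT.

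A further 5 lists of pathway genes, 56 genes of which 45 were tested, cover arachidonate release and reacylation, other lipoxygenases, other prostanoid synthases, eicosanoid breakdown and export, and the receptors. In vehicle against WT 14 of the 45 were called, 6 higher and 8 lower, which is 31.1% of them and close to the 33.3% of all genes. Their median log2 fold change was -0.13. With any 1 vehicle or WT library left out, 2 to 9 were called, and of the 14 calls only that of Ptgr1 passed in every such fit. The calls over all genes tested also fell in these fits, from 5937 to between 1901 and 5907.

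Among the enzymes that handle arachidonic acid before oxidation, Acsl4, which couples it to coenzyme A, rose by 0.52 ± 0.186 in vehicle against WT (adjusted p = 0.0464, edgeR), and Lpcat3, which puts it back into phospholipids, rose by 0.45 ± 0.134 (adjusted p = 0.0239). Acsl4 is X-linked, and the WT mice differ in sex. Pla2g4f, a relative of Pla2g4a at under 2 CPM in every library, was lower with vehicle (-3.34 ± 0.976, adjusted p = 0.0215). Among the other lipoxygenases, Alox15, which oxidises arachidonic acid at another carbon, was at 4.72, 5.33 and 5.43 CPM in WT and at 0.526, 3.41 and 0.592 CPM with vehicle. The vehicle value was -1.75 ± 0.85 (adjusted p = 0.122), and without A3 it was -3.17 (adjusted p = 0.0252). It was lower than WT with AG221 (-3.82 ± 0.969, adjusted p = 0.00643) and with ruxolitinib (-2.56 ± 0.893, adjusted p = 0.0429), the latter call being lost when any 1 ruxolitinib or WT library was left out (adjusted p = 0.0621 to 0.135). Its highest vehicle library, A3, was also the one whose 4 eosinophil markers summed to 556 CPM, against 43.5 to 99.3 CPM in all other libraries.

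The enzymes that end prostaglandin signals moved in opposite directions. Hpgd, which oxidises prostaglandin E2 to an inactive form, ran from 2.18 to 3.76 CPM in WT and from 0.141 to 1.5 CPM in the 12 mutant libraries. It was lower than WT with vehicle (-2.82 ± 0.742, adjusted p = 0.0143, edgeR), with AG221 (-3.06 ± 0.763, adjusted p = 0.00589) and with ruxolitinib (-2.23 ± 0.722, adjusted p = 0.0325). Ruxolitinib replicate A16 was at 1.5 CPM against 0.141 and 0.149 CPM in the other two, and without it the ruxolitinib value was -4.18 (adjusted p = 0.00228), while without any 1 of the other ruxolitinib or WT libraries that call was lost (adjusted p = 0.0541 to 0.0987). The vehicle call was lost without A4 (adjusted p = 0.0526). With combined treatment Hpgd was at 0.731, 0.207 and 0.324 CPM and did not pass the test against WT (-2.77 ± 0.752, adjusted p = 0.061). It passed there with upper quartile normalization (adjusted p = 0.0474), DESeq2 (0.0125), no low count filter (0.0284) and only the groups compared (0.0202). Ptgr1, which reduces the next product and also inactivates leukotriene B4, was at 23.6 to 25.9 CPM in WT, 41.9 to 62.2 with vehicle, 79.0 to 117 with AG221, 57.8 to 71.3 with ruxolitinib and 29.3 to 48.2 with combined treatment.

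Of the 5 lists, ruxolitinib against vehicle called no gene, against 0.0168% of all genes tested (1 at an unadjusted p-value under 0.05 and none by DESeq2). Ptgr1 was the 1 gene of the 45 called between AG221 and vehicle, 2.22% of them, against 0.987% of all genes tested. It rose by 1.01 ± 0.21 in vehicle against WT (adjusted p = 0.0061, edgeR) and by a further 1.0 ± 0.209 from vehicle to AG221 (adjusted p = 0.0458), within the letter A, a step that lost its call without any 1 vehicle library, A8 or A10 (adjusted p = 0.0884 to 0.201). Combined treatment was lower than AG221 by -1.42 ± 0.211 (adjusted p = 0.00178) and lower than ruxolitinib by -0.79 ± 0.209 (adjusted p = 0.0238), and its departure from the sum of both drugs was -1.79 ± 0.295 (adjusted p = 0.0134). The ruxolitinib call was lost without A14, A17, B24 or B25 (adjusted p = 0.066 to 0.123), and the departure call without B25 (adjusted p = 0.0604). Abcc1, which exports leukotriene C4, rose by 0.43 ± 0.138 in vehicle against WT (adjusted p = 0.0315) and was lower with combined treatment than with vehicle (-0.55 ± 0.138, adjusted p = 0.0186), a call lost without A1, A3 or any 1 combined library (adjusted p = 0.0506 to 0.0945). Akr1b3, an aldo-keto reductase that can make prostaglandin F2, rose by 0.48 ± 0.14 in vehicle against WT (adjusted p = 0.0211). Of the enzymes that trim leukotriene C4 towards leukotriene E4, Ggt5 (-1.03 ± 0.373, adjusted p = 0.0475) and the dipeptidase Dpep2 (-1.54 ± 0.468, adjusted p = 0.025) were lower there, while Ggt1 was at 0.708 to 0.905 CPM in WT and 0.16 to 1.96 CPM with vehicle and did not pass the test (adjusted p = 0.97), and Dpep1 was below the filter on low counts. The Ggt5 value was -0.63 without A4 (adjusted p = 0.102) and the Dpep2 value -0.98 without B30 (adjusted p = 0.15), and 40.4% of the Dpep2 exon bases overlap another gene on the same strand. Dpep2 was also the 1 gene of the 45 called in combined treatment against WT (-2.13 ± 0.491, adjusted p = 0.0359), 2.22% of them, against 3.25% of all genes tested. There 11 had an unadjusted p-value under 0.05 and DESeq2 called 5. That Dpep2 call was lost without B25, B26, B28 or B30 (adjusted p = 0.0693 to 0.165).

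Ptger3 and Ptger4, both prostaglandin E2 receptors, and a second synthase were higher with combined treatment than with vehicle. Ptger3 was at 41.8, 46.9 and 31.4 CPM in WT, 13.6, 21.7 and 25.5 CPM with vehicle and 71.2, 76.0 and 34.9 CPM with combined treatment. Ptger4, the receptor that raises cAMP, was at 27.4, 34.5 and 18.4 CPM in WT, 5.98, 10.6 and 13.8 CPM with vehicle and 41.0, 47.1 and 21.1 CPM with combined treatment. Ptges2, a constitutive prostaglandin E synthase, was at 11, 18.5 and 9.66 CPM in WT, 2.22, 3.99 and 6.47 CPM with vehicle and 32.8, 38.7 and 14.4 CPM with combined treatment. In each of the 3 genes the combined libraries lay above the vehicle libraries and the 2 groups did not overlap. Ptger2 did overlap, at 2.84 to 4.74 CPM with vehicle and 3.25 to 7.03 CPM with combined treatment.

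Against vehicle, combined treatment raised Ptges2 by 2.76 ± 0.487 (adjusted p = 0.00374, edgeR), Ptger4 by 1.85 ± 0.501 (adjusted p = 0.0282) and Ptger3 by 1.58 ± 0.484 (adjusted p = 0.047). With Abcc1 these were the 4 of the 45 genes called, 8.89% of them, where 12.5% of all genes tested were called. The Ptger3 call was lost without any 1 vehicle library or without B24 or B25, and the Ptger4 call without A1, A3, B24 or B25. In vehicle against WT, Ptges2 (-1.63 ± 0.471, adjusted p = 0.0206) and Ptger4 (-1.40 ± 0.495, adjusted p = 0.0437) were lower, and so was Ptger2, the other receptor that raises cAMP (-1.03 ± 0.353, adjusted p = 0.0396). Ptger3 did not pass the test there (-0.98 ± 0.477, adjusted p = 0.123), and Ptgir, the prostacyclin receptor, was higher (0.99 ± 0.286, adjusted p = 0.0207). Tbxa2r, the thromboxane receptor, was at 34.7 to 44.7 CPM in WT, 6.0 to 20.4 with vehicle, 1.33 to 14.9 with AG221, 5.26 to 24.6 with ruxolitinib and 39.6 to 62.7 with combined treatment.

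AG221 against WT called 18 of the 45 genes, 7 higher and 11 lower, where 50.7% of all genes tested were called. Beyond those already described, Mgst2, which like Ltc4s can make leukotriene C4, was higher (17.4 to 18.4 CPM in WT and 31.7 to 43.7 CPM with AG221, 1.13 ± 0.378, adjusted p = 0.0247, edgeR), as were its relative Mgst3 (0.90 ± 0.226, adjusted p = 0.00603) and the reductase Ptgr2 (0.53 ± 0.174, adjusted p = 0.0224). Pla2g4b (-1.75 ± 0.569, adjusted p = 0.0213), the leukotriene B4 receptor Ltb4r2 (-3.24 ± 0.906, adjusted p = 0.0106, at or under 2.3 CPM in every library) and Tbxa2r (-2.72 ± 0.773, adjusted p = 0.0114) were lower. Without 1 library the Mgst2 call was lost in 5 of 6 fits (adjusted p = 0.0562 to 0.0707), Ptgr2 lost its call without A8, A10, B30 or B31 and Pla2g4b without A8, A10 or B28. The Pla2g4b call was also lost with GC content offsets (adjusted p = 0.0578) and with no low count filter (0.082). Pla2g4b was at or under 0.689 CPM in every library and at 0.109 to 0.188 CPM with AG221, where 3 counts were worth 0.109 to 0.141 CPM. Of its exon bases 66.5% overlap another gene on the same strand. Without A9 the values of Ltb4r2 and Tbxa2r were -5.51 and -4.40, and with GC content offsets that of Tbxa2r was -1.79. Ruxolitinib against WT called 12, 5 higher and 7 lower, against 32.3% of all genes tested, of which Ptgds, the other prostaglandin D synthase, was called in no other comparison with WT (-1.19 ± 0.424, adjusted p = 0.0466, lost when any 1 library of these groups was left out). Combined treatment against AG221 called 9, against 33.2% of all genes tested, and the leukotriene receptor gene Cysltr1 was among the 3 that were lower (-1.26 ± 0.348, adjusted p = 0.0155), a call lost without B24 or B25.

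The split by letter was complete for these genes as well. In libraries named A and B the ranges were 4.87 to 25.5 and 31.4 to 76.0 CPM for Ptger3, 2.99 to 13.8 and 18.4 to 47.1 CPM for Ptger4, 2.22 to 6.59 and 9.66 to 38.7 CPM for Ptges2, and 1.33 to 24.6 and 34.7 to 62.7 CPM for Tbxa2r. The AG221 libraries A8 and A10 and the ruxolitinib library A16, those lowest in GC-rich genes, held the lowest Tbxa2r values, and Tbxa2r transcripts hold 62.8% GC. With offsets for GC content in each library, the rise of Ptges2, Ptger4 and Ptger3 with combined treatment against vehicle was 2.62, 1.78 and 1.51 on the log2 scale. In vehicle against WT the offsets gave -1.22 for Ptger4 and -0.85 for Ptger2, and both calls were lost (adjusted p = 0.0505 and 0.061, edgeR). The group and the letter cannot be told apart for these genes.

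**Figure D3:**
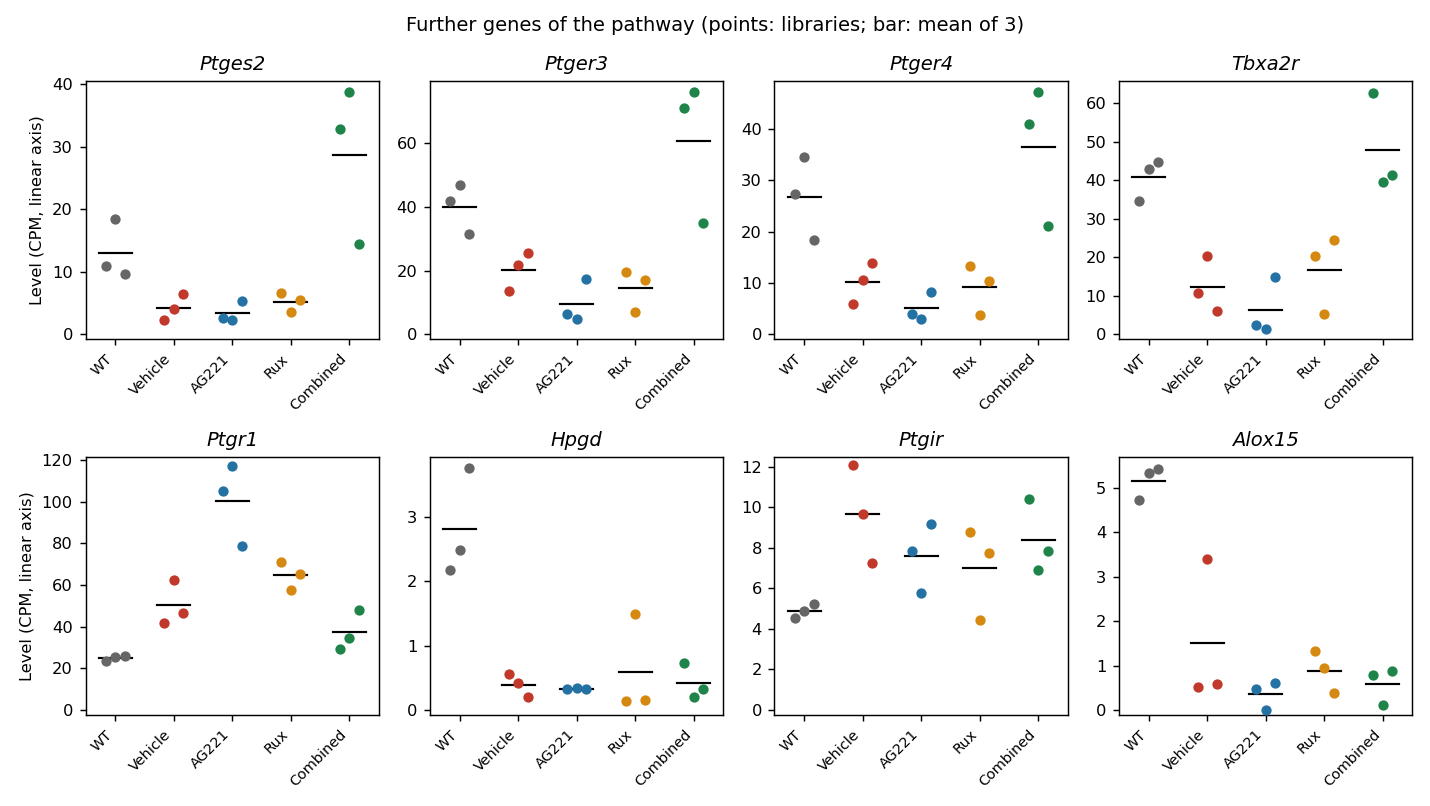
Levels (CPM, linear axis) of 8 further pathway genes in the 15 libraries, with the mean of 3 libraries as a bar. Ptges2, Ptger3, Ptger4 and Tbxa2r are highest in the WT and combined groups, Ptgr1 is highest with AG221, and Hpgd is highest in WT.

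Of the genes tested, those whose log2 CPM followed Alox5 most closely over the 15 libraries were Fcer1a, the IgE receptor's alpha chain (Pearson's r = 0.936), Slc45a3 (0.931), Gadd45g, a growth arrest gene (0.929), Cpa3, the mast cell carboxypeptidase (0.927), and Arl1, a Golgi GTPase (0.925). Fcer1a ran from 3.34 to 4.93 CPM in WT and from 49.3 to 168 CPM with vehicle, and Cpa3 from 30.5 to 49.3 CPM in WT and from 233 to 444 CPM with vehicle. Those most like Ptgs2 were Klf6, a zinc finger factor (0.990), Atf3, a stress-induced factor (0.986), Hspa5, the chaperone of the endoplasmic reticulum (0.983), Tnf, the inflammatory cytokine (0.983), and Zfp36, which drives decay of inflammatory mRNAs (0.981). Atf3 ran from 0.235 to 0.404 CPM in WT, from 46.6 to 57.6 CPM with vehicle and from 0.207 to 0.509 CPM with combined treatment, and Tnf from 2.33 to 3.45, from 28.4 to 46.1 and from 1.31 to 3.76 CPM. Klf6, Atf3 and Zfp36 are on the immediate early list. The libraries fall into separate groups, so these values describe the shared pattern across groups, and by Spearman's correlation 2 of the 5 nearest genes stayed among the 5 for Alox5 and none for Ptgs2.

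**Figure D4:**
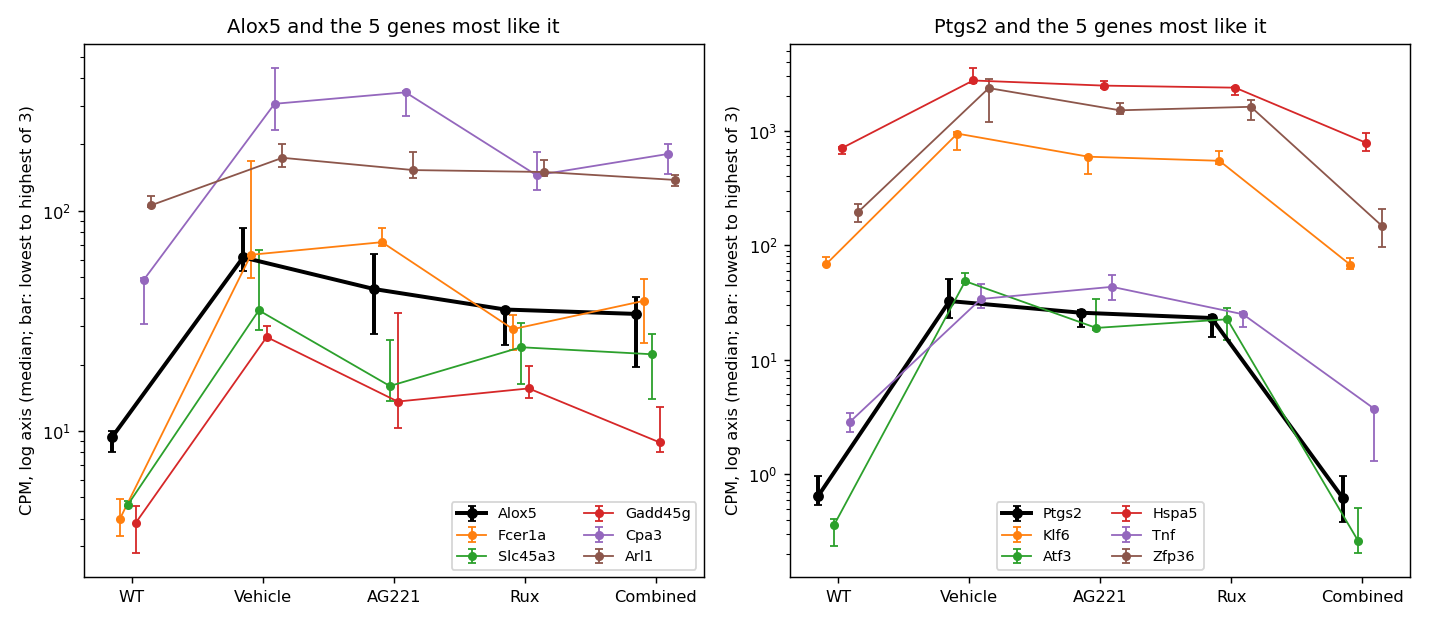
Median level (CPM, log axis, bars from the lowest to the highest of 3 libraries) of Alox5 and of Ptgs2 with the 5 genes most like each, by group. The genes around Alox5 stay above WT with combined treatment, whereas those around Ptgs2 return to the WT range or close to it, as with Atf3 at 0.207 to 0.509 CPM.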

How the data were processed

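RNA of CD45.2+ LSK cells was amplified (SMARTer) and sequenced from both ends, and 15 libraries were grouped by the labels' treatment field. The authors aligned reads to mm10 (GRCm38) with STAR 2.5.1a and deposited raw counts per Ensembl gene; they also deposited the counts divided by DESeq2 1.6.3 size factors, a normalized signal not used here. The Ensembl release and the strand setting are not given in the sources used here. Symbols came from GENCODE (44585 of 45232 IDs), with exon length and transcript GC content.

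The deposited counts entered a single edgeR 4.0.16 quasi-likelihood fit (R 4.3.3, filterByExpr, TMM, 5 groups, no covariates), with Benjamini-Hochberg adjustment over 17834 genes and a threshold of 0.05. Standard errors of fold changes were not fitted directly: each is the absolute log2 fold change divided by the square root of its quasi-likelihood F statistic. Log2 CPM used a prior count of 2, and 3 counts served as the floor, covering counting error only because reads carried no molecular identifiers. The scripts were tested on simulated data.

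The members, the 5 pathway lists and the marker lists were chosen with earlier results of these data known, so no p-value is given for Alox5, Ptgs2 or a list. Named genes are the 10 members, pathway genes called in a described comparison (1 receptor gene is not reported here by name), the 5 genes most like Alox5 and Ptgs2, and marker genes beside a member. Alternatives were RLE and upper quartile normalization, DESeq2 1.42.0, no low count filter, at least 10 counts in every library, only the groups compared, each library left out, and, chosen after seeing the data, GC content offsets (lowess span 0.3); for likeness, a prior count of 0.5 and Spearman's correlation.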

Additional observations from a re-analysis of the deposited data

Results flagged for a closer look

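Of the pathway genes, 5 responded to the drug combination differently from the sum of both single-drug responses, by edgeR's test of that difference itself. They were 1 of the 8 members other than Alox5 and Ptgs2, and 4 of the 45 genes tested from the 5 further lists. The latter share, 8.89%, was close to the 8.42% of all genes tested. With 1 library left out, the count among the 45 ran from 0 to 13, while over all genes tested it ran from 44 to 6087, against 1502 with all libraries. On the log2 scale the departure was -1.03 for Lta4h, -1.79 for Ptgr1, 2.77 for Ptges2, 3.14 for Ptger3 and 3.0 for Ptger4, with adjusted p-values of 0.0286, 0.0134, 0.0363, 0.033 and 0.0362. The calls of Lta4h, Ptges2, Ptger3 and Ptger4 were lost when only the groups compared were fitted and without several of the single libraries. That of Ptgr1 was lost without combined replicate B25 (-1.73, adjusted p = 0.0604). The combined group is the only treated group whose replicate names begin with B, and the group and the letter cannot be told apart. Groups of 3 libraries are too small for a test of single outlying libraries.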

How the results depend on the processing

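The following counts cover all 10 members, including Alox5 and Ptgs2, whose values chose them, and only describe how the counts move. The number called was within 1.5 times the main count under most alternatives, and no called fold change named in the text reversed its direction under any of them. For vehicle against WT 5 were called, 3 of them among the other 8 members, and 3 with upper quartile normalization, which lost Alox5ap and Pla2g4a. Over all genes tested these fits called 5937 and 4892. In vehicle against WT Alox5ap was also lost with no low count filter, with at least 10 counts in every library and with only the groups compared (adjusted p = 0.0571 to 0.123, edgeR). For ruxolitinib against WT 3 became 6 when only the groups compared were fitted, while over all genes tested 5759 became 6282. For AG221 against vehicle none became 1 (Alox5ap) with upper quartile normalization, with DESeq2 and with at least 10 counts in every library. For combined treatment against AG221 3 became 5 with upper quartile normalization, while over all genes tested 5917 became 7030. For the departure from both single drugs added together 2 became 1 when only the groups compared were fitted. The causes were not tested.

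With each library left out in turn, the number of members called ran from 3 to 5 for vehicle against WT, 5 to 7 for AG221 against WT, 3 to 4 for ruxolitinib against WT, 0 to 2 for combined treatment against WT, 0 to 2 for AG221 against vehicle, 1 to 2 for combined treatment against vehicle, 2 to 5 for combined treatment against AG221, 2 to 3 for combined treatment against ruxolitinib and 1 to 3 for the departure, and it was 0 throughout for ruxolitinib against vehicle. Over all genes tested the same fits called 1901 to 5907, 6479 to 10793, 1910 to 5074 and 88 to 415 genes in the comparisons with WT, in that order. AG221, ruxolitinib and combined treatment against vehicle called 0 to 4672, 0 to 9 and 1006 to 1965. Combined treatment called 3002 to 8140 against AG221 and 1137 to 1899 against ruxolitinib, and the departure called 44 to 6087. With all 15 libraries, AG221 against vehicle called 176 genes, 738 with upper quartile normalization, 906 with at least 10 counts in every library, 364 with GC content offsets (chosen after seeing the data), 2306 with DESeq2 and 0 when only these groups were fitted. The departure called 1502 genes, 3124 with upper quartile normalization, 3632 with DESeq2 and 167 with only the groups compared, and combined treatment against WT called 579 genes and 1804 with DESeq2.

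No paired analysis was possible because no replicate number is shared between groups. Ptgs2 in the WT and combined libraries rests on 11 to 29 counts each. The standard error of the difference between these groups was 0.406 log2 units, so a difference well above that size could have been missed. With 1 library left out, the difference ran from -0.54 to 0.17.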
